A study of Mus musculus with 9 samples.

Results

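The interleukin-1 (IL-1) family was followed in mouse bone marrow-derived macrophages (BMDMs) through 8 genes. These are the ligands Il1a, Il1b and Il18, the receptor antagonist Il1rn, the receptors Il1r1 and Il1r2, the accessory receptor chain Il1rap and the secreted binding protein Il18bp. They were taken by symbol from the table of raw counts, where each was on 1 row, and they are 8 of its 53465 genes. BMDMs were grown from the marrow of male mice, labelled C57BL/6 and named C57bl6/J in the methods, with CSF1 at 50 ng/ml for 5 to 10 days, and RNA-Seq was made from 9 libraries in 3 groups of n = 3. One group was left untreated (UNX). The others received culture medium conditioned by pulmonary artery adventitial fibroblasts, either from control calves (CO-CM) or from calves made pulmonary hypertensive by 2 weeks of hypobaric hypoxia (PH-CM). Each conditioned medium was a pool from 5 fibroblast populations, the experiment was repeated 3 times, and whether the pool was remade each time is not stated, so the p-values measure the spread between these libraries, not between calves. Exposure is given as 18 h in the methods and as 16 h and 24 h in label texts. The media carried bovine proteins to mouse cells.

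The IL-1 family is a central part of innate immunity, and macrophages are among its main sources. IL-1α and IL-1β bind the receptor IL1R1, which signals only once it has recruited the accessory chain IL1RAP, and the signal then runs through MyD88 and IRAK kinases to NF-κB. The family carries its own brakes: IL1RN occupies IL1R1 without recruiting IL1RAP, IL1R2 is a decoy receptor that binds ligand and cannot signal, and IL18BP captures IL-18 outside the cell. IL-1β and IL-18 are made as precursors that are cut by caspase-1 in the inflammasome, so the RNA level is only the first layer of control.

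Libraries held 62017933 to 84314201 counted reads, and levels are given as CPM, the reads of a gene scaled to library size with TMM factors. The 8 macrophage markers were all detected, led by Lyz2, and their summed level was 11818 to 12613 CPM in UNX, 19014 to 19970 CPM in CO-CM and 21462 to 23275 CPM in PH-CM. Of 9 fibroblast markers 7 passed the filter on low values, led by Col1a1, with sums of 200.2 to 253 CPM in UNX, 274 to 325 CPM in CO-CM and 254 to 339 CPM in PH-CM. Neutrophil markers summed to 1.99 to 3.04 CPM in UNX, 3.19 to 4.54 CPM in CO-CM and 2.62 to 3.99 CPM in PH-CM, with S100a8 holding most reads and Ly6g at 0 in all 9 libraries. Mast cell and basophil markers summed to 1.57 to 3.34 CPM in UNX, 1.80 to 2.36 CPM in CO-CM and 0.776 to 0.918 CPM in PH-CM, with Mcpt4, Ms4a2 and Fcer1a at 0. Kit held most reads in UNX and CO-CM and was lower in PH-CM (612, 404 and 56 reads in UNX, CO-CM and PH-CM). Mcpt8 was highest in PH-CM (16, 6 and 96 reads), and Cpa3 held 3, 2 and 7 reads. Dendritic cell markers stayed at 0.885 CPM or less in sum, with none of 6 past the filter and Zbtb46 holding most reads. T, B and NK cell markers summed to 1.53 to 3.47 CPM in UNX, 6.48 to 8.07 CPM in CO-CM and 13.3 to 17.1 CPM in PH-CM, nearly all of it from Cd4, with Ncr1 at 0. The macrophage and T, B and NK sums were apart between all 3 groups, the other sums less or not at all, and their part in the results on the members was not tested. In bulk RNA, fewer cells of a type and less RNA per cell cannot be told apart.

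Across the family, PH-CM libraries carried more of both IL-1 ligands and of the signalling receptor Il1r1 than UNX or CO-CM libraries, and Il1rn was highest in UNX, intermediate in PH-CM and lowest in CO-CM. Genes were tested where CPM exceeded 1 in at least 3 libraries, which 11950 genes and 7 of the 8 members did. Il1a and Il1r1 met that condition through the 3 PH-CM libraries alone and Il1b through those and 1 CO-CM library, so for them passing was tied to being high in PH-CM. Il1r2 did not pass. A member was called where the edgeR quasi-likelihood test gave a Benjamini-Hochberg adjusted p of at most 0.05 over all genes tested and a fold change of at least 1.2. Against UNX, PH-CM gave 7 called members, 5 higher and 2 lower, where 63% of all genes tested were called (31.3% higher and 31.7% lower). CO-CM against UNX gave 6, 4 higher and 2 lower, where 57% of genes were called (28% higher and 28.9% lower). PH-CM against CO-CM gave 6, all higher, where 27.1% of genes were called (12.2% higher and 15% lower). The median log2 fold change over the tested members was 1.51, 0.40 and 0.86 in that order, beside medians over all genes of 0.0072, 0.00024 and -0.0064. Since passing was tied to PH-CM for Il1a, Il1b and Il1r1, these counts and medians are descriptions of the members that passed. Both comparisons against UNX share its 3 libraries.

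**Figure D1:**
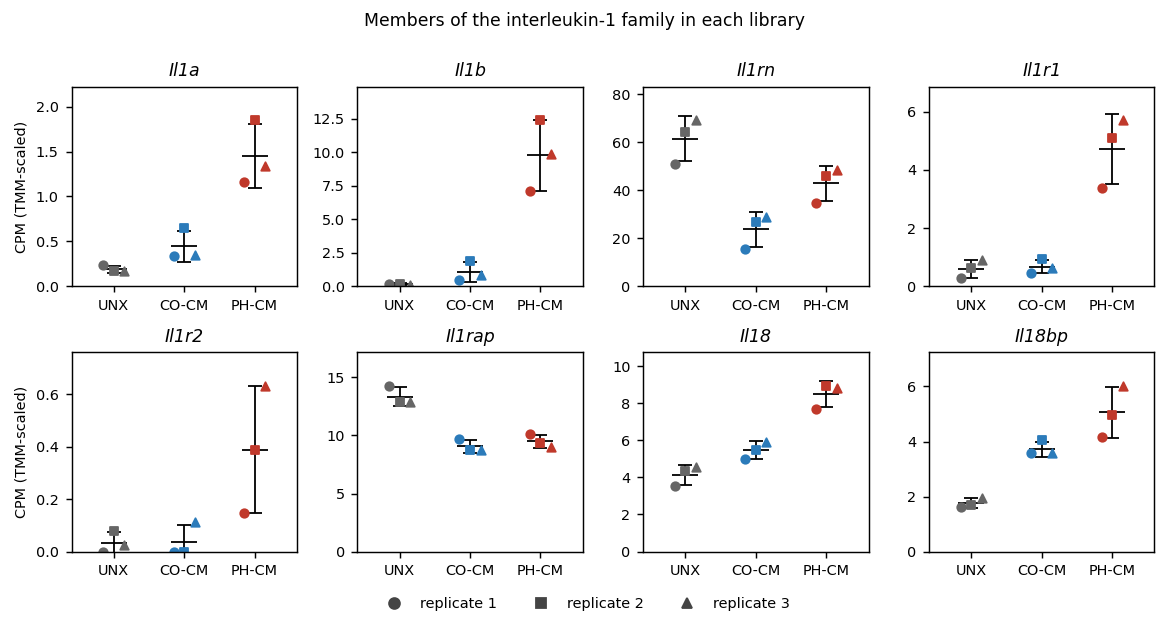
CPM of each member (y axis, TMM-scaled, from 0) in the 3 UNX, CO-CM and PH-CM libraries (x axis), with the marker shape giving the replicate number and the bar the mean ± SD. Il1b reached 7.11 to 12.4 CPM in PH-CM against at most 0.186 CPM in UNX, whereas Il1rn was 50.9 to 69.2 CPM in UNX and 15.5 to 28.8 CPM in CO-CM.

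Il1b, which encodes the secreted ligand IL-1β, showed the largest difference of the family. It held 12, 14 and 8 reads in the UNX libraries, 29, 126 and 57 reads in CO-CM, and 478, 770 and 622 reads in PH-CM. Scaled, that was 0.185, 0.186 and 0.0931 CPM in UNX, 0.424, 1.89 and 0.801 CPM in CO-CM, and 7.11, 12.4 and 9.85 CPM in PH-CM. The 3 groups did not overlap, and the lowest PH-CM library lay well above the highest CO-CM library. Il1b was 64.0-fold higher in PH-CM than in UNX (log2 fold change 6.00 ± 0.52 SE, edgeR adjusted p = 2.28e-06), which ranked 8 of the 11950 genes tested by fitted increase. It was 6.77-fold higher in CO-CM than in UNX (2.76 ± 0.59, edgeR adjusted p = 0.00187). It was 9.45-fold higher in PH-CM than in CO-CM (3.24 ± 0.41, edgeR adjusted p = 0.000164). The size of the CO-CM difference rested on replicate 2, which held 126 of the 212 CO-CM reads: without it the log2 fold change was 2.01 for CO-CM against UNX and 3.99 for PH-CM against CO-CM. Il1b (ENSMUSG00000027398) lies on the minus strand of chromosome 2 from 129364570 to 129371139 (GRCm38) and shares 25 exon bases with the antisense gene Il1bos, which held 4, 4 and 0 reads in PH-CM and 0 in the other 6 libraries.

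Il1a, the gene of the ligand IL-1α, followed the same order at lower levels. It held 15, 13 and 14 reads in UNX, 23, 43 and 25 reads in CO-CM and 78, 115 and 85 reads in PH-CM. In CPM these were 0.231, 0.172 and 0.163 in UNX, 0.336, 0.644 and 0.351 in CO-CM, and 1.16, 1.85 and 1.35 in PH-CM, again without overlap. The fitted increase was 7.71-fold for PH-CM against UNX (log2 fold change 2.95 ± 0.32 SE, edgeR adjusted p = 1.25e-05). It was 2.36-fold for CO-CM against UNX (1.24 ± 0.36, edgeR adjusted p = 0.0109) and 3.27-fold for PH-CM against CO-CM (1.71 ± 0.29, edgeR adjusted p = 0.00103). Il1a (ENSMUSG00000027399, chromosome 2 from 129299610 to 129309972, minus strand) lies 54.6 kb from Il1b and shares 222 exon bases with Gm14023 on the other strand. Gm14023 held 9, 12 and 16 reads in UNX, 25, 17 and 36 reads in CO-CM and 34, 23 and 18 reads in PH-CM. The counting options listed in the methods set neither strand nor assignment to several genes, so by the tool's defaults strand was ignored and a read on bases shared by both genes was given to neither. The Il1a counts therefore leave out reads on the shared bases, and antisense reads on its other exon bases, if any, are included.

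Of all other genes tested, Il1a was the one whose log2 CPM was closest to that of Il1b over the 9 libraries (Pearson r = 0.992). Gm26756 (0.991), Zfp821 (0.991), Zswim4 (0.990) and Parp8 (0.990) came next. These are descriptions over n = 9 libraries that share 3 groups, and 858 genes (7.18%) had an r above 0.9. The bases before the start sites of both ligand genes are shown because these genes rose together and lie side by side. They are the 250 bases upstream of the RefSeq start (GRCm38.p6), at chr2:129309973-129310222 for Il1a and chr2:129371140-129371389 for Il1b, both read on the minus strand, and at chr2:24336610-24336859 on the plus strand for the antagonist Il1rn, at the first of its 3 listed starts. Capitals mark TATAAA and TGANTCA, the latter an AP-1 motif, searched on both strands and not overlapping here.

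Il1a: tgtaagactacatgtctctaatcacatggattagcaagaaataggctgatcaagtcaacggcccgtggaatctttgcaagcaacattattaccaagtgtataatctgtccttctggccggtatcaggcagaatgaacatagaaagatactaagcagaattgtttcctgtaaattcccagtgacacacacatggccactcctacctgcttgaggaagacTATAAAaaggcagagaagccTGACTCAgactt
Il1b: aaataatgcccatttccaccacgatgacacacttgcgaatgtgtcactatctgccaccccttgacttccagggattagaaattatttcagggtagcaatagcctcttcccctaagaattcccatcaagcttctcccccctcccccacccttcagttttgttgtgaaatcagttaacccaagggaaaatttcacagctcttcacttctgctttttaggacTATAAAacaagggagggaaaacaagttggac
Il1rn: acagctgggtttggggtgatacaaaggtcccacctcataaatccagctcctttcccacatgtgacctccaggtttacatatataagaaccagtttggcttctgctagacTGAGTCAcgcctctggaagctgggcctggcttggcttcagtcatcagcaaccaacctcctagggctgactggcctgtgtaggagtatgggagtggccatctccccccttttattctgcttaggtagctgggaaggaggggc

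TATAAA begins 32 bases before the start of Il1a and 31 bases before that of Il1b, and it is in 12.4% of the 32851 upstream windows of the same length. TGANTCA begins 12 bases before the start of Il1a and 141 bases before that of Il1rn, and it is in 6.75% of windows. All 8 members had such windows, 11 in all. The only other member window with TATAAA was that of Il18, where it begins 175 bases before the start. The C/EBP motif TTGCNNAA was in 1 window each of Il1r1 and Il18bp (9.56% of all windows), and the NF-kB consensus was in 1 Il1r1 window (3.9%). A match describes these letters and no binding.

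Il1rn, the antagonist, was the most abundant of the 8 per unit of exon length in UNX and the only member highest there beside Il1rap. It held 50.9, 64.1 and 69.2 CPM in UNX, 15.5, 26.7 and 28.8 CPM in CO-CM, and 34.6, 46.0 and 48.3 CPM in PH-CM. The groups did not overlap, with CO-CM lowest. CO-CM libraries had 2.60-fold less Il1rn than UNX (-1.38 ± 0.21, edgeR adjusted p = 0.00021), and PH-CM libraries had 1.81-fold more than CO-CM (0.86 ± 0.21, edgeR adjusted p = 0.00972). PH-CM was 1.43-fold below UNX (-0.52 ± 0.21, edgeR adjusted p = 0.0442), and it was lower in 3 of 3 same-numbered pairs (-0.52 with the replicate block, edgeR adjusted p = 8.08e-05). Without the block this call was lost with the DESeq2 Wald test (-0.52, adjusted p = 0.0602), with upper-quartile factors (-0.49, adjusted p = 0.0572), and without any one of UNX 2, UNX 3, CO-CM 2, PH-CM 1 or PH-CM 2 (adjusted p up to 0.148). Il1rn (ENSMUSG00000026981) lies on chromosome 2 from 24336853 to 24351494 with 6 annotated transcripts and no overlapping gene. The RNA counts do not separate its secreted and intracellular forms. The genes most like Il1rn over the 9 libraries were Ccdc115 (r = 0.994), Adk (0.988), Lrmp (0.985), Gm12250 (0.984) and Angpt2 (0.984), with 111 genes (0.929%) above 0.9.

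The balance of ligand and antagonist was read as the ratio of their RPKM values, which are scaled to exon length and library size. Il1b was 1.06%, 0.840% and 0.391% of Il1rn in the UNX libraries, 7.96%, 20.5% and 8.06% in CO-CM, and 59.6%, 78.2% and 59.2% in PH-CM. The ranges did not overlap, and even in PH-CM each library held more Il1rn than Il1b. The geometric mean of the ratio was 92.7-fold higher in PH-CM than in UNX, 15.6-fold higher in CO-CM than in UNX and 5.94-fold higher in PH-CM than in CO-CM. Differenced within replicate numbers, these ranged from 56.5-fold to 152-fold, from 7.54-fold to 24.4-fold and from 3.81-fold to 7.50-fold. Exact two-sided permutation tests, which ignore the pairing, gave p = 0.1 for each, the smallest that 3 against 3 libraries allow. Exact sign-flip tests of the differences within replicate numbers gave p = 0.25 for each, the smallest that 3 pairs allow. In CO-CM both parts moved the ratio, with Il1b higher and Il1rn lower than in UNX, whereas from CO-CM to PH-CM both genes were higher and Il1b by more.

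**Figure D2:**
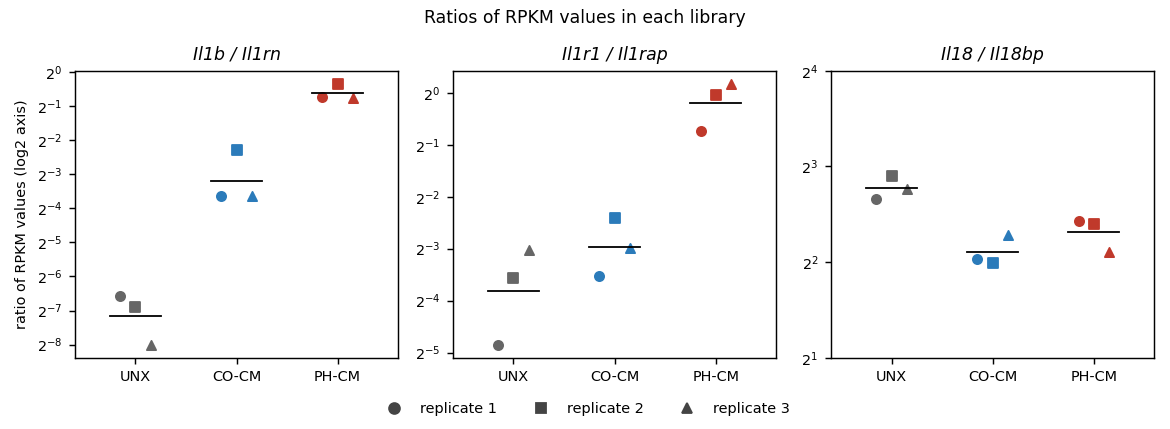
Ratio of RPKM values of Il1b to Il1rn, Il1r1 to Il1rap and Il18 to Il18bp (y axis, log2 scale) in each UNX, CO-CM and PH-CM library (x axis), with marker shapes for replicate numbers and lines at geometric means. Il1b to Il1rn rises in separate steps from UNX to PH-CM, Il1r1 to Il1rap is apart only in PH-CM, and Il18 to Il18bp is highest in UNX.

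Il1r1, the receptor that transmits the IL-1 signal, was higher in PH-CM than in either other group. It held 18, 46 and 76 reads in UNX, 32, 62 and 44 reads in CO-CM, and 228, 317 and 361 reads in PH-CM. In CPM these were 0.278, 0.610 and 0.885 in UNX, 0.468, 0.928 and 0.618 in CO-CM, and 3.39, 5.10 and 5.71 in PH-CM. All 3 PH-CM libraries lay above the other 6, which overlapped. The increase was 7.81-fold for PH-CM against UNX (2.96 ± 0.36, edgeR adjusted p = 2.72e-05) and 7.05-fold for PH-CM against CO-CM (2.82 ± 0.36, edgeR adjusted p = 0.000173). Between CO-CM and UNX no difference passed the test (0.15 ± 0.40, 95% confidence interval -0.74 to 1.04, edgeR adjusted p = 0.756). That value changed sign without UNX 1 (-0.18) or without CO-CM 2 (-0.15). Il1r1 (ENSMUSG00000026072) lies on chromosome 1 from 40225080 to 40317257, and Gm38070 on the same strand held at most 2 reads in any library.

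Il1r2, the decoy receptor, was at the edge of detection. It held 0, 6 and 2 reads in UNX, 0, 0 and 8 reads in CO-CM and 10, 24 and 40 reads in PH-CM, with no library above 0.633 CPM. The PH-CM libraries were above all others, and UNX and CO-CM overlapped. The mean was 0.389 ± 0.242 CPM (SD, n = 3) in PH-CM, 0.0343 ± 0.0409 CPM in UNX and 0.0375 ± 0.0649 CPM in CO-CM. The exact two-sided permutation test gave p = 0.1 for PH-CM against UNX and against CO-CM, the smallest possible here, and p = 1 for CO-CM against UNX. In a fit of 26930 genes without the filter, the log2 fold change was 3.36 ± 0.81 for PH-CM against UNX (edgeR adjusted p = 0.000603) and 3.28 ± 0.81 against CO-CM (edgeR adjusted p = 0.00205). Every Il1r2 count was even, and by the tool's defaults the mates of a read pair were counted singly. This fit treats such mates as separate reads, and counts divided by 2 were tried only for genes past the filter. Il1r2 (ENSMUSG00000026073, chromosome 1 from 40074079 to 40125231) is the neighbour of Il1r1, 99.8 kb away, and the antisense Gm16894 inside it held up to 8 reads a library. Because Il1r2 had 0 reads in 3 libraries, its RPKM ratio to Il1r1 was given for PH-CM only, where Il1r1 was 6.84, 3.96 and 2.71 times Il1r2 per length.

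Il1rap, the chain shared by receptors for IL-1 and related ligands, went the other way. It held 14.3, 12.8 and 12.9 CPM in UNX, 9.68, 8.77 and 8.73 CPM in CO-CM, and 10.1, 9.34 and 9.04 CPM in PH-CM. UNX libraries were all above the 6 treated ones, which overlapped. Il1rap was 1.47-fold lower in CO-CM than in UNX (-0.56 ± 0.08, edgeR adjusted p = 0.000107) and 1.41-fold lower in PH-CM than in UNX (-0.49 ± 0.08, edgeR adjusted p = 0.000221). The difference between PH-CM and CO-CM did not pass (0.07 ± 0.08, 95% confidence interval -0.11 to 0.24, edgeR adjusted p = 0.55). Il1rap (ENSMUSG00000022514) lies on chromosome 16 from 26581704 to 26730117, and its antisense Gm20319 held at most 2 reads. After these values were seen, the ratio of Il1r1 to Il1rap was also computed per length. It was 3.47%, 8.48% and 12.2% in UNX, 8.63%, 18.9% and 12.6% in CO-CM and 60.0%, 97.6% and 113% in PH-CM. PH-CM stood apart from both other groups, 12.3-fold above UNX and 6.84-fold above CO-CM, while UNX and CO-CM overlapped. The percentages themselves rest on the exon lengths behind RPKM, 6363 bases for Il1r1 and 11360 for Il1rap. In CPM, Il1r1 was below Il1rap in each PH-CM library, at 3.39, 5.10 and 5.71.

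**Figure D3:**
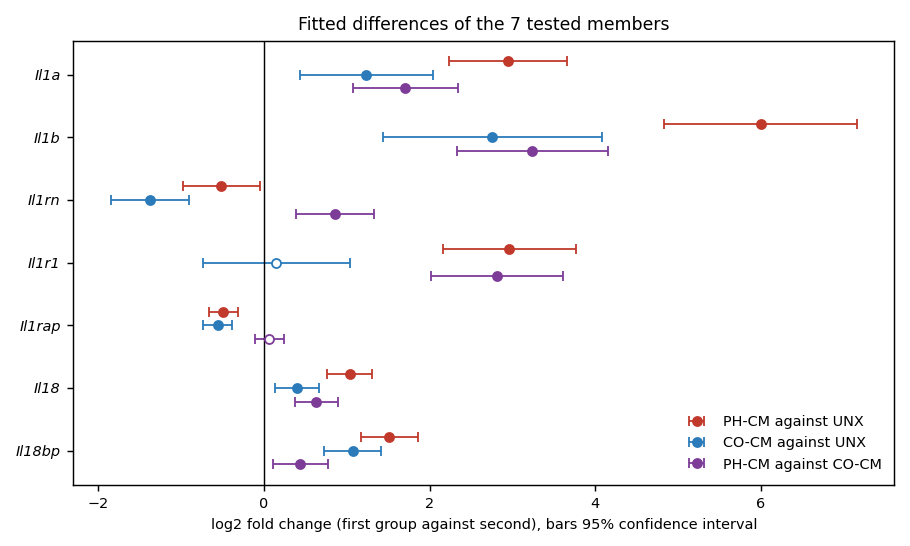
Fitted log2 fold change (x axis) of the 7 tested members (y axis) in the 3 comparisons, with 95% confidence intervals as bars, filled points for called differences and open points for the others. Il1b lies farthest to the right at 6.00 for PH-CM against UNX, and Il1rn is on the negative side against UNX and on the positive side for PH-CM against CO-CM.

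Il18 and its binding protein were both higher with conditioned medium. Il18, the ligand that drives interferon-γ production by lymphocytes, held 3.52, 4.33 and 4.54 CPM in UNX, 4.97, 5.48 and 5.93 CPM in CO-CM, and 7.68, 8.95 and 8.82 CPM in PH-CM. The groups did not overlap. PH-CM was 2.05-fold above UNX (1.03 ± 0.12, edgeR adjusted p = 2.02e-05) and 1.55-fold above CO-CM (0.63 ± 0.12, edgeR adjusted p = 0.00198). CO-CM was 1.32-fold above UNX (0.40 ± 0.12, edgeR adjusted p = 0.0132, and 0.40 with the replicate block, edgeR adjusted p = 0.00136). In fits with no block, this call was lost when UNX 1 (adjusted p = 0.0537) or CO-CM 3 (adjusted p = 0.0519) was left out. Il18 (ENSMUSG00000039217) lies on chromosome 9 from 50554827 to 50581840 and shares no annotated exon bases with Bco2 and Tex12 on the opposite strand. Bco2 held 42, 61 and 79 reads in UNX, 110, 101 and 104 reads in CO-CM and 150, 217 and 135 reads in PH-CM, and Tex12 at most 9 reads a library. By the tool's defaults strand was ignored, so opposite-strand reads on Il18 exons, if any, are included in its counts. Their part in the Il18 values was not tested.

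Il18bp, the soluble inhibitor of IL-18, held 1.64, 1.71 and 1.96 CPM in UNX, 3.57, 4.04 and 3.57 CPM in CO-CM, and 4.18, 4.97 and 6.03 CPM in PH-CM. All CO-CM libraries lay above all UNX libraries, and all PH-CM libraries above all CO-CM libraries. The increase against UNX was 2.85-fold in PH-CM (1.51 ± 0.15, edgeR adjusted p = 7.35e-06) and 2.10-fold in CO-CM (1.07 ± 0.15, edgeR adjusted p = 0.000122). Between the conditioned media it was 1.36-fold (0.44 ± 0.15, edgeR adjusted p = 0.0374, and 0.43 with the replicate block, edgeR adjusted p = 0.0152). In fits with no block, it did not pass with upper-quartile factors (adjusted p = 0.0531) or without any one of CO-CM 1, CO-CM 3, PH-CM 2 or PH-CM 3 (adjusted p up to 0.15). Il18bp (ENSMUSG00000070427, chromosome 7 from 102014885 to 102018690) shares 80 exon bases with Numa1 on the other strand, which held 17837 to 24780 reads a library. By the same defaults, reads on those bases were counted for neither gene. Per length, Il18 was 6.31, 7.44 and 6.81 times Il18bp in UNX, 4.09, 3.98 and 4.88 times in CO-CM, and 5.39, 5.28 and 4.29 times in PH-CM. UNX lay above both other groups, which overlapped. The geometric mean of the ratio was 1.38-fold lower in PH-CM than in UNX and 1.59-fold lower in CO-CM than in UNX (exact permutation p = 0.1 each), and 1.15-fold higher in PH-CM than in CO-CM (exact permutation p = 0.2). Exact sign-flip tests within replicate numbers gave p = 0.25, 0.25 and 0.5 in the same order.

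Ordered by mean RPKM, the family had a different make-up in each group. The order between genes rests on the exon lengths behind RPKM, which join the exons of all annotated transcripts. They are 1031 bases for Il18, 5535 for Il1rn and 11360 for Il1rap, and the transcripts expressed were not determined. By CPM the order differs: in PH-CM the means were 43.0 for Il1rn, 9.49 for Il1rap and 8.48 for Il18. In UNX, Il1rn led at 11.4 ± 1.6 RPKM (SD, n = 3), followed by Il18 at 4.11, Il1rap at 1.21 and Il18bp at 0.600, none overlapping its neighbour. Il1a at 0.0986, Il1r1 at 0.0950 and Il1b at 0.0835 RPKM came next, and neighbours among these overlapped. In CO-CM, Il18 at 5.19 and Il1rn at 4.18 RPKM overlapped at the top, Il18bp stood at 1.21, Il1rap at 0.782 overlapped Il1b at 0.529, Il1b overlapped Il1a at 0.219, and Il1r1 was at 0.103 RPKM. In PH-CM, Il18 at 8.12, Il1rn at 7.66 and Il1b at 5.06 RPKM formed a chain of overlapping neighbours, above Il18bp at 1.65, and then Il1rap at 0.826, Il1r1 at 0.734 and Il1a at 0.726 overlapped in turn. Il1r2 was last in each group. Il1b thus ranked 7 of 8 in UNX, 5 in CO-CM and 3 in PH-CM. Replicate 1 had the lowest CPM of its group in 19 of the 24 combinations of member and group, and replicate 3 the highest in 11. The 19 include a tie of replicates 1 and 2, both at 0 reads, for Il1r2 in CO-CM.

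Groups of the 3 libraries separated without overlap for all 8 members in PH-CM against UNX, 6 higher and 2 lower, where 77.7% of tested genes did so (38.9% higher and 38.8% lower). The count was 6 members in CO-CM against UNX (4 higher and 2 lower, where 72% of genes did, 35.4% higher and 36.7% lower) and 7 in PH-CM against CO-CM (50.2% of genes), where all 7 were higher in PH-CM, beside 23.9% of genes higher and 26.3% lower. The counts of 8 and 7 include Il1r2, which did not pass the filter, whereas the shares are over tested genes only. Il1a and Il1r1 passed through the 3 PH-CM libraries alone and Il1b through those and 1 CO-CM library. For them passing was tied to being high in PH-CM, so these counts are descriptions.

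Other ligands and receptors of the family were mostly silent or moved in opposite directions. Of 13 such genes, 4 passed the filter: Il1rl1, Il1rl2, Il18rap and Sigirr, and Il33 and the IL-36 genes held at most 6 reads each over the 9 libraries. Il1rl1 (ST2), the IL-33 receptor, fell from 5.89 ± 0.36 CPM in UNX to 0.631 ± 0.041 CPM in CO-CM and was 2.50 ± 0.15 CPM in PH-CM, a log2 fold change of -3.22 ± 0.13 for CO-CM and -1.23 ± 0.11 for PH-CM against UNX. Il18rap, the accessory chain of the IL-18 receptor, was lower against UNX in CO-CM (-2.16 ± 0.28) and PH-CM (-0.66 ± 0.25) and, like Il1rl1, higher in PH-CM than in CO-CM (1.51 ± 0.29 and 1.99 ± 0.13). The ligand-binding chain Il18r1 held 10 reads over the 9 libraries. Il1rl2, the IL-36 receptor, rose to 6.28 ± 1.67 CPM in CO-CM and 3.70 ± 0.46 CPM in PH-CM from 1.66 ± 0.63 CPM in UNX, and was lower in PH-CM than in CO-CM (-0.77 ± 0.27). Il1r2, Il1r1, Il1rl2, Il1rl1, Il18r1 and Il18rap lie in that order within 478 kb of chromosome 1. Of these 6 neighbours Il1r1 was higher in PH-CM than in UNX, Il1rl2 also, and Il1rl1 and Il18rap were lower. The other neighbours did not pass the filter: all PH-CM libraries lay above all UNX libraries for Il1r2, and Il18r1 was nearly unread.

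Of the 18 genes of the IL-1 receptor signal chain 17 passed the filter, and these lists were called by the rule used for the members. Against UNX, PH-CM gave 8 higher and 1 lower and CO-CM 6 higher and 1 lower, and PH-CM against CO-CM gave 3 higher and 1 lower. In the same order 9, 7 and 4 of the 17 were called, where 63%, 57% and 27.1% of all genes tested were called, so no excess of calls is seen in this list. Their median log2 fold changes were 0.20, 0.07 and 0.13. Peli2, an E3 ligase that acts on IRAK complexes, rose from 6.80 ± 0.72 CPM in UNX to 40.4 ± 3.2 CPM in CO-CM and 58.0 ± 2.9 CPM in PH-CM (log2 fold changes 2.57 ± 0.09 and 3.09 ± 0.09). Irak2, a kinase of the receptor complex, was highest in CO-CM (92.3 ± 2.3 CPM) and lower in PH-CM (69.0 ± 2.9 CPM) and UNX (39.5 ± 1.0 CPM). Irak3, a brake on this pathway, was higher in PH-CM than in CO-CM (0.50 ± 0.06 on the log2 scale) or UNX (0.77 ± 0.06). Ube2n, which builds the ubiquitin chains of the pathway, was lower than in UNX with both media (-0.54 ± 0.06 in CO-CM and -0.40 ± 0.06 in PH-CM).

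All 12 genes of IL-1 and IL-18 maturation and release passed the filter, and 6 were higher and 4 lower in PH-CM than in UNX. CO-CM against UNX gave 4 higher and 2 lower, and PH-CM against CO-CM 5 higher and 3 lower, with medians of 0.16, 0.11 and 0.24. Of all genes tested, 63%, 57% and 27.1% were called in PH-CM against UNX, CO-CM against UNX and PH-CM against CO-CM. Nlrp3, the inflammasome sensor that is itself induced by priming, was 83.1 ± 12.2 CPM in UNX, 23.9 ± 3.3 CPM in CO-CM and 44.7 ± 4.2 CPM in PH-CM, so it was lower than in UNX in CO-CM (-1.80 ± 0.12) and PH-CM (-0.89 ± 0.12) and higher in PH-CM than in CO-CM (0.90 ± 0.12). The adaptor Pycard was lower in PH-CM than in UNX (-0.51 ± 0.11) or CO-CM (-0.39 ± 0.11). Nlrc4, another sensor, rose with both media (1.66 ± 0.14 in PH-CM and 0.92 ± 0.14 in CO-CM), and Ninj1, which ruptures the membrane of dying cells, reached 312 ± 28 CPM in PH-CM against 123 ± 4.9 CPM in UNX and 161 ± 25 CPM in CO-CM. P2rx7, the ATP-gated channel upstream of IL-1β release, was higher than in UNX with CO-CM (0.66 ± 0.06) and PH-CM (0.74 ± 0.06). Panx1, a channel of the same step, was lower in CO-CM than in UNX (-0.43 ± 0.09) and higher in PH-CM than in CO-CM (0.27 ± 0.09). It was not called in PH-CM against UNX (-0.16 ± 0.09). Nek7, a partner of NLRP3, was lower in PH-CM than in CO-CM (-0.36 ± 0.04).

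Of 12 genes known as early targets of IL-1 signalling 8 passed the filter, and in PH-CM against UNX 7 were higher and 1 lower. CO-CM against UNX gave 4 higher and 0 lower, and PH-CM against CO-CM 6 higher and 1 lower, with medians of 2.03, 0.29 and 1.23. The shares called over all genes tested were 63%, 57% and 27.1% in the same order. Cxcl1 and Cxcl3 passed the filter through the 3 PH-CM libraries alone, so for them passing was tied to being high there, and these counts and medians are descriptions of the genes that passed. The chemokine Cxcl3 stood at 1.92 ± 0.19 CPM in PH-CM, 0.0881 ± 0.0591 CPM in CO-CM and 0.180 ± 0.161 CPM in UNX. Ptgs2 (COX-2) was 11.5 ± 0.7 CPM in PH-CM, 1.40 ± 0.52 CPM in CO-CM and 1.27 ± 0.57 CPM in UNX (3.20 ± 0.30 for PH-CM against UNX and 3.04 ± 0.30 against CO-CM). Zc3h12a, an RNase that trims cytokine mRNA, was higher than in UNX with CO-CM (1.33 ± 0.09) and PH-CM (1.74 ± 0.09), and higher in PH-CM than in CO-CM (0.41 ± 0.09). The chemokine Cxcl1 was higher than in UNX with CO-CM (1.19 ± 0.29) and PH-CM (3.20 ± 0.26), and higher in PH-CM than in CO-CM (2.01 ± 0.24). Tnfaip3 (A20), an inhibitor of NF-κB signalling, was the gene that fell, from 45.4 ± 3.1 CPM in UNX to 34.3 ± 2.2 CPM in PH-CM. Il6, Csf3, Lcn2 and Ccl20 did not pass the filter. These genes also answer other signals than IL-1.

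**Figure D4:**
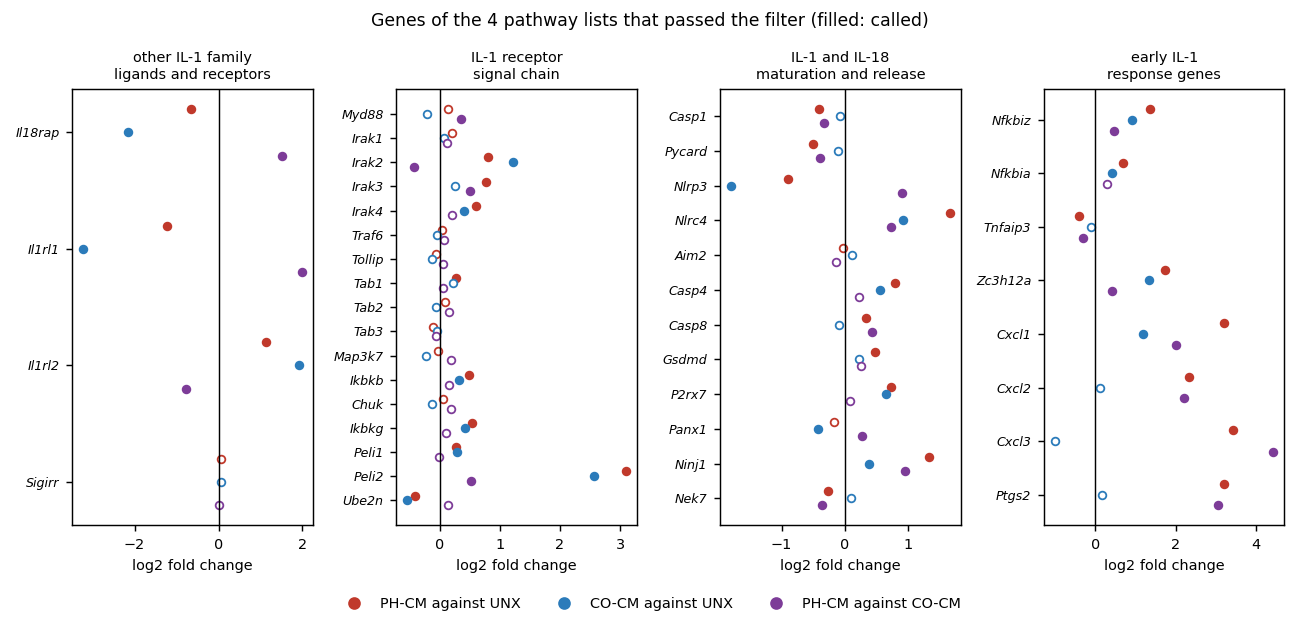
Fitted log2 fold change (x axis) of each gene of the 4 pathway lists that passed the filter (y axis), in the 3 comparisons, filled where called. The early response genes Cxcl3 and Ptgs2 lie at 3.42 and 3.20 for PH-CM against UNX, while Il1rl1 and Nlrp3 lie at -3.22 and -1.80 for CO-CM against UNX.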

How the data were processed

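RNA-Seq of 9 BMDM libraries was used, grouped by title and treatment label. The labels name a NuGen mRNA-Seq kit and paired reads of 150 cycles. The authors used FastQC v0.11.5 for read quality, AfterQC for trimming, STAR 2.6.0c for alignment to GRCm38 and featureCounts 1.6.2 for assignment to genes, whose listed options set neither strand, pairs nor assignment to several genes. By the defaults, reads were counted without strand, each mate singly, and a read on bases shared by different genes went to none. The deposited counts are raw, in whole reads for each gene. Among counts under 20, 81.4 to 83.8% were even, and counts divided by 2 were tried for genes past the filter. The deposited RPKM values are the same reads divided by exon length and library total. The authors' tables of comparisons, with their log2 fold changes and p-values, were not used.

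Counts were fitted with edgeR 4.0.16 in R 4.3.3 (limma 3.58.1), by TMM and the quasi-likelihood test, with 1 mean per group over all 9 libraries. Standard errors are the log2 fold change divided by the root of F. Standard errors, intervals and adjusted p-values ignore the pairing by replicate number, except where the replicate block is named. DESeq2 1.42.0 served as an alternative, and the others changed normalization, filter, samples, threshold, the replicate block and each library. On simulated data, 94.4 to 97.2% of genes changed 2-fold were recovered. Every same-numbered pair of libraries deviated together from its group means (r of 0.276 to 0.484 over genes in 9 pairs, against -0.376 to 0.0423 in 18 other pairs), so the numbers pair the samples. The pairing comes from the label numbers and the repeated experiment. Ratios were tested by exact permutation of mean log2 RPKM ratios, and within replicate numbers by exact sign-flips of the paired differences. For each list and comparison, up to 2 called genes at either extreme of the log2 fold change were named, and the 5 genes most correlated with Il1b and with Il1rn (log2 CPM, prior count 2). Members and lists were chosen with earlier results of these data known, and the Il1r1 to Il1rap ratio after its values were seen. Identifiers matched reference names for 53274 of 53465 genes. Positions come from GENCODE M21 (GRCm38) and upstream bases from RefSeq (GRCm38.p6). Errors cover the spread between these libraries.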

Additional observations from a re-analysis of the deposited data

How the results depend on the processing

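Of 441 values of the members' log2 fold changes under alternatives, 418 kept their direction and their side of the threshold, 21 kept the direction without passing (7 of them at a 2-fold threshold, 3 with another tool or scaling, and 11 for Il1rn in PH-CM against UNX, Il18bp in PH-CM against CO-CM or Il18 in CO-CM against UNX without 1 library), and 2 changed sign, both for Il1r1 in CO-CM against UNX (-0.18 without UNX 1 and -0.15 without CO-CM 2, in a range up to 0.56). The counts of members called were 6 to 7, 5 to 6 and 5 to 6 when each library was left out, for PH-CM against UNX, CO-CM against UNX and PH-CM against CO-CM. With the replicate block they were 7, 6 and 6, and the block changed no call of a member and no list count. A threshold of 2-fold left 3 members in PH-CM against CO-CM, Il1a, Il1b and Il1r1, where 612 genes of 11950 passed (3244 in the main fit), and 2153 and 1655 against UNX for PH-CM and CO-CM. It left 1, 2 and 0 genes of the signal chain and 2, 1 and 0 of maturation and release in PH-CM against UNX, CO-CM against UNX and PH-CM against CO-CM, and 2 and 4 early response genes in CO-CM against UNX and PH-CM against CO-CM. With no fold threshold the signal chain had 12 called genes in CO-CM against UNX and 10 in PH-CM against CO-CM, where 8274 and 4531 of all 11950 genes were called. Leaving out each library, the log2 Il1b to Il1rn ratio ranged over 6.11 to 6.83, 3.51 to 4.26 and 2.34 to 3.02, and that of Il18 to Il18bp over -0.52 to -0.36, -0.76 to -0.61 and 0.15 to 0.31. No ratio moved by more than the spread between replicates with 1 read added. Pairing by replicate number leaves the mean difference of a log2 ratio unchanged by arithmetic, so it could not move these values. The difference of Il1r2 in CO-CM against UNX, near 0, ranged from -0.0343 to 0.0258 CPM without each library, and changed sign without CO-CM 3, UNX 1 (-0.0139) or UNX 3 (-0.0023). The RPKM ratio of Il1r1 to Il1r2 had no value in 3 libraries, so its alternatives were not run, except that with 1 read added to both genes all 3 groups overlapped (exact permutation p = 0.9, 0.7 and 0.6). No scaling moved the median of all genes by over 0.1. The low reads of Il1a, Il1b and Il1r2 in UNX limit the precision of their folds, and the pooled media limit all comparisons to these pools.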
